A study of Mus musculus with 12 samples.

Results

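The JAK kinase and STAT transcription factor genes examined here were 9 of the 545 immune genes counted in hippocampal microglia of mice. They were taken by gene symbol: Jak1, Jak2, Jak3 and Tyk2 are the 4 JAK genes, and Stat2, Stat3, Stat5a, Stat5b and Stat6 are the 5 STAT genes. Other STAT genes are not analysed here. The groups were microglia of postnatal day 28 (P28, n = 6) and of postnatal day 14 (P14, n = 6), and all samples came from control male pups of the Balbc strain, each from another litter. All pups were raised under control conditions, with no genetic change or drug named in the labels, and the comparison asks how microglia of the ages differ. Cells were separated on a Percoll gradient and sorted by flow cytometry, and the sources used here do not give the gate. The bulk RNA of a sample cannot tell a change in RNA per cell from a change in the mix of sorted cells.

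JAK kinases sit on the inner tails of cytokine receptors that have no kinase of their own. When a cytokine draws the receptor chains together, the kinases phosphorylate the chains and the STAT proteins that dock there, and paired STATs move to the nucleus and switch on target genes, among them SOCS genes whose products dampen the same receptors. Each receptor uses its own kinases and STATs, so the set a microglial cell makes bears on which of the brain's cytokines (interferons, IL-6, IL-4, GM-CSF and others) it can read.

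The assay, the nCounter mouse immune panel, pairs each RNA with a fluorescent barcode and counts barcodes. The counts of the 545 genes summed to between 1025196 and 1534665 in the P28 samples and between 356398 and 1316430 in the P14 samples. Values below are scaled counts, the raw count divided by a factor for its sample, the geometric mean of 6 reference genes there relative to the other samples. A probe has its own capture efficiency, so levels are set against each other between ages and never between genes. P14 samples 4 and 5 had the lowest totals (772723 and 356398) and scored 5.30 and 9.16 on the second principal component, where the remaining P14 samples scored -6.83 to -3.26. Positive-control spikes differed between the ages without overlap, with factors of 1.28 to 1.48 in P28 and 0.648 to 0.778 in P14 samples. A difference in assay yield and age therefore cannot be told apart on that scale. Whether scaling to reference genes removes all of this assay difference, gene by gene, was not tested. All 9 microglial markers were above background, and their summed level ran from 270007 to 306092 scaled counts at P28 and from 245707 to 305392 at P14. These sums hide markers that went opposite ways. In the edgeR test described below, Trem2 was higher at P28 (log2 fold change 0.71 ± 0.13) and Emr1 lower (-0.72 ± 0.082). The other 7 did not pass, where 30.6% of all genes tested were called. Of 8 T cell markers 1 passed the presence rule and Cd3e, Cd2 and Cd28 were never above background. Of 5 B cell markers 3 passed, and Pax5 was never above background.

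All 9 JAK and STAT genes were expressed in microglia at both ages: each of their 108 values exceeded background, which is 2 SD above the mean of that sample's negative probes, on raw counts of 83 to 9450. Stat5a was higher at P28 (log2 fold change 0.57, though -0.25 when scaled to positive controls alone), Jak3 and Stat3 had lower averages at P28 without passing the test, and the log2 fold changes of the other 6 genes lay between -0.14 and 0.18. With edgeR's quasi-likelihood test and Benjamini-Hochberg adjustment over all 366 genes above background, 1 of the 9 genes passed an adjusted p of 0.05. Over all genes tested the share was 30.6% (112 of 366), made up of 16.7% higher and 13.9% lower at P28. The scaled counts of the ages overlapped for all 9 genes, while 20.8% of all genes tested had no overlap. The median log2 fold change (P28 over P14) was -0.071 over the 9 genes and 0.0026 over all genes.

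**Figure D1:**
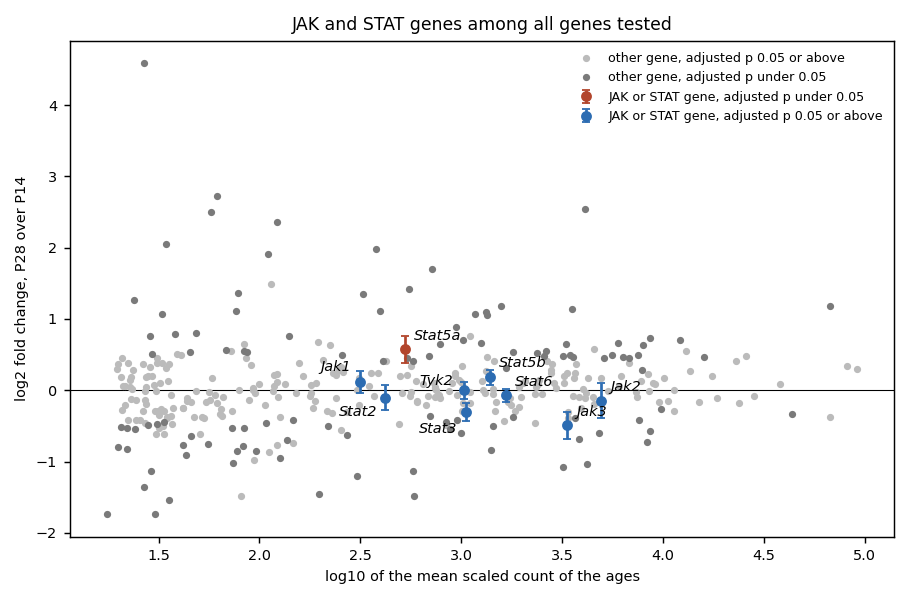
Log2 fold change (P28 over P14, vertical axis) against log10 of the mean scaled count (horizontal axis) for the 366 genes tested, with the 9 JAK and STAT genes named and shown with their SE. Stat5a, at 0.57, is the named gene past an adjusted p of 0.05, and the other 8 lie between -0.49 and 0.18.

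Stat5a and Stat5b encode near-identical factors that carry the signals of GM-CSF, IL-2 and IL-7 among others. The genes are neighbours on mouse chromosome 11, followed by Stat3, and their upstream sequences are shown because these closely related genes are the pair compared below. The 250 bases before the annotated start of each (RefSeq, GRCm38.p6) were searched on both strands for TTCNNNGAA, the core of most STAT sites, for the same arms spaced by 4 bases instead, as Stat6 prefers, and for GAGGAAGT, a core bound by the myeloid factor PU.1. The table holds 2 starts each for Stat5a and Stat5b, and the first listed is shown for each. The shown Stat5a window (chr11:100859406-100859655, plus strand, 57.6% G or C) and Stat5b window (chr11:100850582-100850831, minus strand, 82.0% G or C) held none of the 3 motifs, nor did the window of the other start of either gene, so no base is in capitals.
Stat5a: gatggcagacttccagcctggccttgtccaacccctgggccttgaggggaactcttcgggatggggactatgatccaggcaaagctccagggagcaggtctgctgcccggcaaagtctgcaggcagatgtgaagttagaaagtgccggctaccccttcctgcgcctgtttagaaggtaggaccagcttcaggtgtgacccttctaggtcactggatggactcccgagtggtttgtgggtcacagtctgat
Stat5b: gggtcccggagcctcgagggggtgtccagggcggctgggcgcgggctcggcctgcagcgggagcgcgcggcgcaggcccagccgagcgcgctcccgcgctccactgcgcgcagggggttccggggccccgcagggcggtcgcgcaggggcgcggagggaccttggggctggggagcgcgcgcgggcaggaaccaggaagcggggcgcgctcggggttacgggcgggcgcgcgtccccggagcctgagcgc
Over the 11 windows of the 9 genes, TTCNNNGAA was found in 0, GAGGAAGT in 0 and the wider spacing in 1. Among 32851 windows of the same length in the mouse table the shares were 7.02% for TTCNNNGAA, 5.85% for the wider spacing and 2.44% for GAGGAAGT. These are matches of letters and say nothing of binding.

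Stat5a ranged from 559 to 679 scaled counts at P28, with a median of 647, and from 249.8 to 600.2 at P14, with a median of 448. Of the P14 samples, 4 and 5 were the lowest, at 282 and 249.8, and only sample 61 (600.2) reached into the P28 range. The means were 633 ± 42.2 at P28 and 423 ± 134 at P14 (SD, n = 6 each), a log2 fold change of 0.57 ± 0.19 (SE) or 1.49-fold, with a 95% interval of 1.13 to 1.96 and an adjusted p of 0.0274 in edgeR. The P14 values were more spread, with a coefficient of variation of 6.67% at P28 and 31.8% at P14. Without P14 samples 4 and 5, the P14 mean was 502 ± 72.5 (n = 4) and the log2 fold change was 0.34 ± 0.10, with an edgeR adjusted p of 0.0210. Stat5a thus passed with and without these samples, at a fold of 1.49 and 1.26. It missed the threshold when P28 sample 134 (adjusted p = 0.0513) or P28 sample 135 (adjusted p = 0.0579) was left out, and when Polr1b was dropped from the reference genes (0.45, adjusted p = 0.0821).

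Stat5b ranged from 1279 to 1636 scaled counts at P28 (median 1499.6) and from 1076 to 1376 at P14 (median 1356). The means, 1479 ± 150.2 at P28 and 1304 ± 116 at P14, gave a log2 fold change of 0.18 ± 0.10 that did not pass in edgeR (adjusted p = 0.189). The interval of the fold ran from 0.975 to 1.32. It passed on the authors' scaling (0.31, adjusted p = 0.0329) and with all 14 reference genes (0.25, adjusted p = 0.0453), but was at 0.056 without Polr1b (adjusted p = 0.704), 0.023 with total counts (adjusted p = 0.840) and -0.58 with positive controls alone (adjusted p = 0.145). The probe sequences are not given in the sources used here, so whether the Stat5a and Stat5b probes share signal was not tested.

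**Figure D2:**
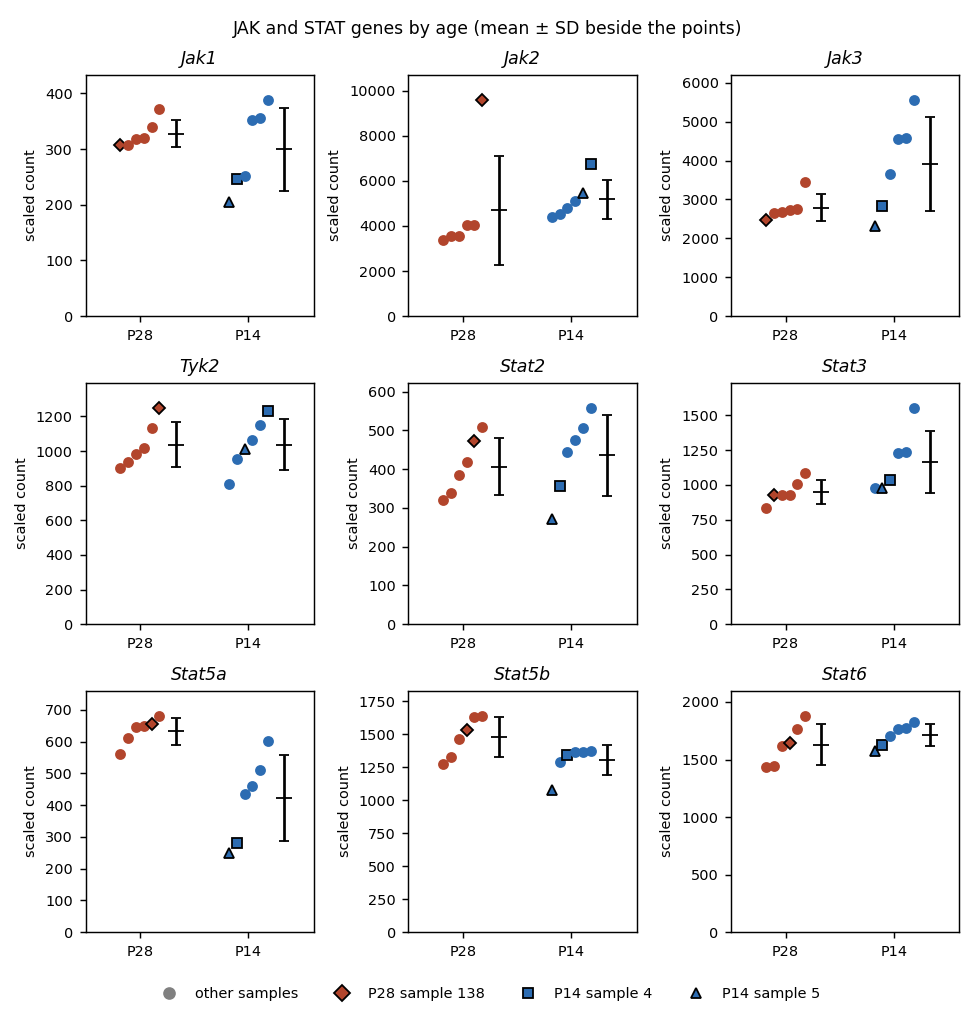
Scaled counts (vertical axes, from 0) of the 9 genes in the 6 P28 and the 6 P14 samples, drawn in order of value within an age, with the mean ± SD beside them and P28 sample 138 and P14 samples 4 and 5 marked. P14 samples 4 and 5 are the lowest of their age for Stat5a, Jak3, Stat2, Jak1 and Stat6, and P28 sample 138 lies at 9567 scaled counts for Jak2, above all other samples.

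Jak3 pairs with the common gamma chain of the receptors for IL-2, IL-4, IL-7 and IL-21 and is known mainly from lymphocytes. Its counts in these cells were far above background, from 2460.2 to 3455 scaled counts at P28 (median 2698) and from 2309.99 to 5547 at P14 (median 4110.3). The means were 2785 ± 343 at P28 and 3914 ± 1211 at P14, and the log2 fold change of -0.49 ± 0.19 just missed the threshold in edgeR (adjusted p = 0.0578). On all 12 samples Jak3 passed in edgeR with 14 reference genes (adjusted p = 0.0439), without Polr1b (0.0194) and with TMM (0.00685). It also passed with total counts (0.00658), positive controls alone (0.0122) and DESeq2 (0.0302). Jak3 did not pass with the authors' factors (edgeR adjusted p = 0.119), the other filters (0.0602 and 0.0633) or limma (0.105 on scaled counts, 0.198 on the authors' values). The P14 samples fell into a low pair, samples 5 and 4 at 2309.99 and 2831, and the other 4, at 3662 to 5547. Without that pair the ages did not overlap, at 2460.2 to 3455 in P28 samples and 3662 to 5547 in P14 samples, and Jak3 was lower at P28 by a log2 fold change of -0.72 ± 0.12 (edgeR adjusted p = 0.00045). These samples are also the lowest P14 samples in Jak3 itself and leaving out both was chosen after seeing the data, so this value describes the remaining samples. On those 10 samples 3 of the 9 genes passed (Stat5a higher, Jak3 and Stat3 lower), against 43.2% of all genes tested, and 31.4% of all genes tested had no overlap. Jak3 also passed when P14 sample 4 (-0.57, adjusted p = 0.0295), P14 sample 5 (-0.60, adjusted p = 0.00711) or P28 sample 137 (-0.56, adjusted p = 0.0433) alone was left out.

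The markers of lymphocytes are given here as sums over a list, to be compared between ages only. The summed T cell markers lay between 105 and 165 scaled counts at P28 and between 119 and 178 at P14. Only 1 of the 8 T cell markers passed the presence rule, so these sums are mostly background counts. The summed B cell markers lay between 236 and 353 at P28 and between 395 and 620.3 at P14. The summed NK cell markers, with Gzmb never above background, lay between 205 and 309 at P28 and between 74.2 and 213 at P14. Markers within a list went opposite ways. Of the B cell markers Cd79b was lower at P28 (-1.20 ± 0.18) and Cd79a higher (0.76 ± 0.18). Of the NK cell markers Klrd1 was higher (2.72 ± 0.21, above background in 6 of 6 samples at P28 and 2 of 6 at P14). Klrk1 and Gzma, above background in 0 of 6 samples at P28 and 5 of 6 at P14, were at least 1.49-fold and 1.10-fold lower. Both passed the presence rule only through the P14 samples, so their calls add no support beyond that difference in detection. In P14 samples 4 and 5, low in Jak3, the T cell sums were 119 and 178, the B cell sums 459 and 554 and the NK cell sums 116 and 74.2, the last being the lowest at P14. The part of such cells in the Jak3 level was not tested.

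Jak2 is the kinase of the receptors for GM-CSF, IL-3, erythropoietin and, with Jak1, interferon gamma. On the scale used here its comparison rested on a single sample. P28 sample 138 had 9567 scaled counts, on a raw count of 9450, while the other P28 samples lay between 3398 and 4045 and the P14 samples between 4401 and 6751. With that sample the means were 4691 ± 2404 at P28 and 5183 ± 860.2 at P14, and the log2 fold change of -0.14 ± 0.24 did not pass in edgeR (adjusted p = 0.701). Scaled to positive controls alone, Jak2 passed on all 12 samples (-0.86, edgeR adjusted p = 0.0419). Without sample 138, the P28 mean was 3716 ± 298 (n = 5) and the log2 fold change was -0.48 ± 0.12 (edgeR adjusted p = 0.00773), with no overlap between the ages. This sample is singled out on the value of Jak2 itself, so the value without it is a description of the other samples, in which 32.2% of all genes tested passed and 23.5% had no overlap. Sample 138 was 2.58-fold above the other P28 samples, averaged on the log2 scale, for Jak2, the second largest such excess among 366 genes, of which 7 reached 2-fold. Maf, a transcription factor of macrophages, was also far higher there, at 4879 scaled counts against 2413 to 2919.7 in the other P28 samples. Maf was named as the gene most like Jak2 over the 12 samples, so its excess there follows from that choice. Sample 138 had its largest excess in Cxcl10 (4.20-fold), and its median over all genes was 0.058 on the log2 scale. Its sum of the microglial markers was the highest of the P28 samples (306092 scaled counts), and so were 3 of its 6 sums for other cells, at 10139 scaled counts for neurons and glia (6652 to 10139 at P28, 4261 to 6967 at P14), 2941 for endothelial and mural cells (1857 to 2941 at P28, 2073 to 3345 at P14) and 8243 for neutrophils (4158 to 8243 at P28, 2847 to 8683 at P14). For B, NK and T cells the sums of sample 138 were 296, 236 and 149, inside the range of the other P28 samples. The neutrophil sum came mostly from Csf3r, with a P28 mean of 5186 scaled counts, against 26.0 for Ltf and 14.1 for Cxcr2. Csf3r is also on the list of receptor chains below, and Cxcr2 was above background in 0 of 6 samples at P28. The sum for neurons and glia came mostly from App (P28 mean 7388), with Mbp at 468 and Cx3cl1 at 8.18. The part of other cells in the Jak2 value was not tested.

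Jak1, the partner kinase of interferon receptors and of the IL-6 receptor chain gp130, and Tyk2, which serves type I interferon and IL-12 receptors, did not pass the test. Jak1 ranged from 308 to 372 scaled counts at P28 (median 319) and from 205 to 387 at P14 (median 302), with means of 328 ± 24.6 at P28 and 299.97 ± 74.5 at P14. Its log2 fold change was 0.12 ± 0.16 (edgeR adjusted p = 0.604), and the interval of the fold was 0.863 to 1.37. The P28 samples all lay inside the P14 range. Tyk2 ranged from 903 to 1246 at P28 (median 1001) and from 809 to 1234 at P14 (median 1037), with means of 1037 ± 129.9 at P28 and 1037 ± 149 at P14. Its log2 fold change of -0.00048 ± 0.12 (edgeR adjusted p = 0.997) had an interval of the fold of 0.834 to 1.20.

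Stat3, the main factor of IL-6 and IL-10 signalling, ranged from 834 to 1082 scaled counts at P28 (median 926) and from 975 to 1549 at P14 (median 1133). The means were 949.9 ± 84.9 at P28 and 1168 ± 222 at P14, and the log2 fold change of -0.30 ± 0.13 did not pass in edgeR (adjusted p = 0.0924). The lowest P14 samples, 25, 5 and 4, overlapped the P28 samples. Without P14 samples 4 and 5 Stat3 was lower at P28 by a log2 fold change of -0.39 ± 0.12 (adjusted p = 0.0185), and without P14 sample 5 alone by -0.34 (adjusted p = 0.0470). DESeq2 on all samples gave the same size, -0.30, with an adjusted p of 0.0481. On all 12 samples Stat3 also passed in edgeR without Polr1b (adjusted p = 0.0174), with TMM (0.0120) and with total counts (0.00577). It passed with positive controls alone as well (0.0244). Stat3 did not pass with the authors' factors (edgeR adjusted p = 0.291), 14 reference genes (0.0889) or the other filters (0.0901 and 0.118). Nor did it pass in limma (0.118 on scaled counts, 0.340 on the authors' values).

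Stat6 carries the signals of IL-4 and IL-13, and Stat2 forms part of the complex that type I interferons activate. Stat6 ranged from 1431 to 1874 at P28 (median 1632) and from 1570.5 to 1826 at P14 (median 1734), so the P14 samples all lay inside the P28 range. Its means of 1629.5 ± 176 at P28 and 1711 ± 97.2 at P14 gave a log2 fold change of -0.071 ± 0.096 (edgeR adjusted p = 0.615; interval of the fold 0.826 to 1.10). Stat2 ranged from 320.1 to 508 at P28 (median 401) and from 272 to 557 at P14 (median 460.4). Its means of 407 ± 74.0 at P28 and 435 ± 104 at P14 gave a log2 fold change of -0.10 ± 0.17 (edgeR adjusted p = 0.703; interval 0.719 to 1.21). The Stat2 upstream window (chr10:128270248-128270497, plus strand, GRCm38.p6) is shown because it was the only one of the 11 with a motif, the wider spacing of TTC and GAA, in capitals, at bases -210 to -201 from the annotated start.
Stat2: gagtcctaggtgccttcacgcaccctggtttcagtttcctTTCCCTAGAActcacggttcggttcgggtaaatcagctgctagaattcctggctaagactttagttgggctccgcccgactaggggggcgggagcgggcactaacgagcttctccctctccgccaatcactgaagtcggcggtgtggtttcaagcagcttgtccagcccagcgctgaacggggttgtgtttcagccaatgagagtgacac

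The direction of several fold changes depended on the scaling. A factor per sample moves all genes nearly alike, so the distance of a gene from the median of all genes is almost fixed by construction and is given here as a description. Over all 366 genes the median was 0.13 (log2) with the authors' factors, 0.080 with the full 14 reference genes, -0.029 with TMM, -0.12 without Polr1b, -0.14 with total counts and -0.74 with positive controls alone. Relative to that median, Stat5a lay 0.48 to 0.58 above on the log2 scale and Stat5b 0.16 to 0.18 above over the 7 scalings. Jak1 lay 0.065 to 0.13 above it. Below the median lay Jak3 (-0.58 to -0.48), Stat3 (-0.33 to -0.30), Jak2 (-0.21 to -0.12), Stat2 (-0.15 to -0.10) and Stat6 (-0.099 to -0.074), and Tyk2 lay at it (-0.038 to 0.012). On the plain scale, positive controls alone put Stat5a at -0.25 (adjusted p = 0.557) and Jak3 at -1.32 (adjusted p = 0.0122). The split of calls over all genes was 61 higher and 51 lower on the scale used here, 93 and 36 by the authors' scaling, 89 and 42 by all 14 reference genes, 50 and 74 without Polr1b, 51 and 96 with total counts, 8 and 127 with positive controls, 89 and 26 with limma on the authors' values and 68 and 90 without P14 samples 4 and 5. The number of the 9 genes called, beside the share of all genes called, was 2 against 35.2% with the authors' factors, 3 against 35.8% with 14 reference genes, 2 against 33.9% without Polr1b, 3 against 36.9% with positive controls alone, 3 against 36.3% with TMM and 4 against 40.2% with total counts. It was 3 against 35.3% in DESeq2, 2 against 34.2% in limma on the authors' values and 0 against 21.3% at an FDR of 0.01. With each sample left out in turn it was 0 to 3, against 27.9% to 33.1%.

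**Figure D3:**
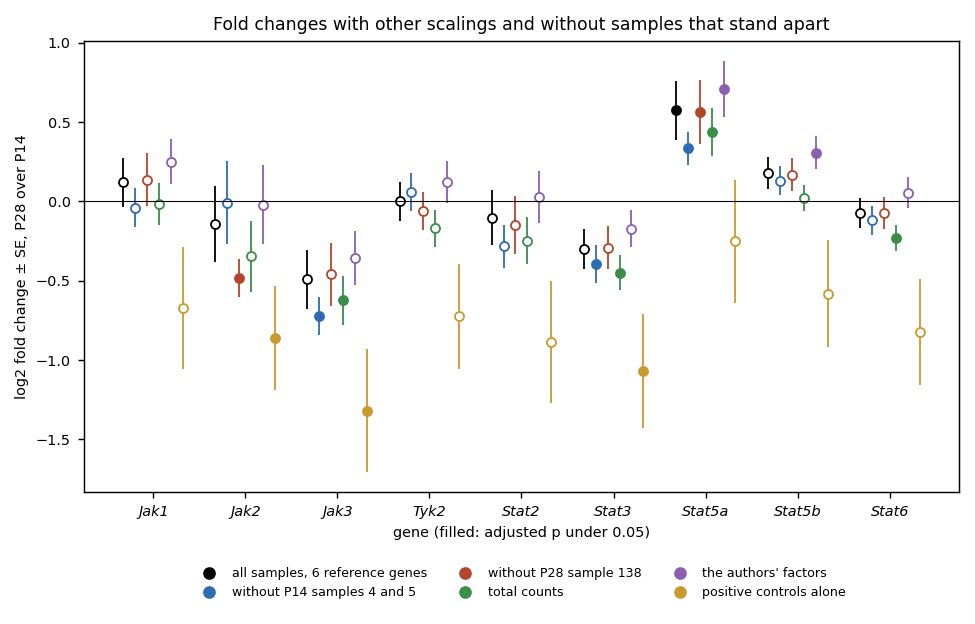
Log2 fold change (P28 over P14) ± SE of each gene in 6 settings, filled where the adjusted p is under 0.05. Stat5a is filled in 5 of the settings and lies at -0.25 with positive controls alone. Jak2 is filled without P28 sample 138 and with positive controls. Jak3 and Stat3 are filled without P14 samples 4 and 5, with total counts and with positive controls. Stat5b is filled with the authors' factors and Stat6 with total counts.

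Ratios of 2 genes within a sample do not depend on any scaling. The ratio of Stat5b to Stat5a counts ran from 1.98 to 2.52 in P28 samples (median 2.39) and from 2.15 to 4.78 in P14 samples (median 3.05), and only P14 sample 61 lay inside the P28 range. The mean log2 ratio was 1.22 ± 0.12 at P28 and 1.69 ± 0.43 at P14 (SD, n = 6 each), a difference of -0.47. In an exact two-sided permutation test over all 924 arrangements, which allows no p under 0.00216, the raw p was 0.0216 and the p adjusted over 4 ratios was 0.0866. Without P14 samples 4 and 5, which had ratios of 4.78 and 4.31, the difference was -0.22 (exact permutation p adjusted over the 4 ratios, 0.200). Of the 12 fits that leave out a single sample, 1 passed, that without P14 sample 61 (-0.58, exact adjusted p = 0.00866), and since sample 61 is the P14 sample inside the P28 range of this ratio, that value is a description.

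Jak2 over Jak1 ran from 10.4 to 31.1 in P28 samples (median 11.1) and from 11.4 to 27.4 in P14 samples (median 16.9), a difference of mean log2 ratios of -0.40 (exact adjusted p = 0.335), which was -0.65 without P28 sample 138 and -0.092 without P14 samples 4 and 5. Tyk2 over Jak1 ran from 2.65 to 4.05 in P28 samples and from 2.68 to 5.01 in P14 samples, a difference of -0.16 (exact adjusted p = 0.420) that was 0.090 without P14 samples 4 and 5. Stat6 over Stat3 ran from 1.43 to 2.02 in P28 samples and from 1.14 to 1.74 in P14 samples, a difference of 0.21 (exact adjusted p = 0.216). None of the 4 ratios passed after adjustment.

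**Figure D4:**
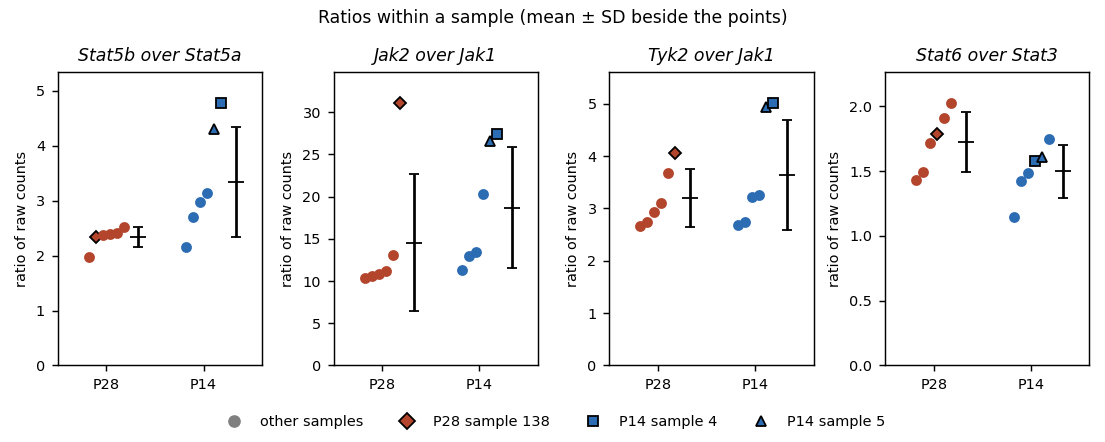
Ratios of raw counts within a sample (vertical axes, from 0) for 4 pairs of genes in P28 and P14 samples, in order of value within an age, with the mean ± SD beside the points. For Stat5b over Stat5a the P28 samples sit between 1.98 and 2.52, and P14 samples 4 and 5 at 4.78 and 4.31.

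The 9 genes did not share 1 profile over the 12 samples. As a measure of likeness, the root mean square difference between log2 scaled counts, each gene centred on its own mean, was taken for all 36 pairs. It ran from 0.14 for Stat5b and Stat6 to 0.72 for Jak2 and Stat5a, with a median of 0.34. The measure also grows with the spread of each gene. The SD of the log2 values over the 12 samples was 0.12 for Stat6 and 0.16 for Stat5b, against 0.41 for Jak2 and 0.46 for Stat5a. P14 samples 4 and 5 differed from the rest of their age in several of the 9 genes. Relative to the other P14 samples they were lower in Stat5a by a log2 difference of -0.91, in Jak3 by -0.83, in Stat2 by -0.66 and in Jak1 by -0.56, against a median of -0.32 over all genes. In Tyk2 and Jak2 they were higher, by 0.18 and 0.37. Samples 4 and 5 also had the lowest totals of the 12 samples, at 772723 and 356398. Some marker sums of samples 4 and 5 also lay at the edge of the P14 range. The endothelial and mural sums were 3345 and 3156, with the first the highest at P14. The neutrophil sums were 6693 and 8683, with the second the highest, and came mostly from Csf3r (P14 mean 4626, against 46.7 for Cxcr2 and 28.1 for Ltf). The microglial sums were 281616 and 245707, with the second the lowest. The B cell sums, 459 and 554, were neither the lowest nor the highest at P14. The part of depth or of other cells in these values was not tested.

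By the same measure the 2 genes outside the group most like Stat5a were Cd74, the invariant chain of MHC class II (0.15), and Pdcd2 (0.16). For Jak3 they were Tlr1, a receptor for bacterial lipopeptides (0.15), and Itgb1, the integrin beta 1 chain (0.16), and for Jak2 they were Maf (0.19) and Itgam, the integrin chain CD11b (0.24). Stat3 lay nearest to B2m, which encodes beta-2 microglobulin (0.14), and to Pou2f2 (0.14). Stat5b lay nearest to Ifnar2, a chain of the type I interferon receptor (0.091), and to the adhesion molecule Icam1 (0.11), and Stat6 to Zbtb7b (0.080) and the kinase Syk (0.10). The gene nearest to Jak1 was the TGF-beta receptor Tgfbr1 (0.11). For Tyk2 the genes were Zeb1 (0.12) and Cd3eap (0.13), and for Stat2 the receptor chain Il6ra (0.16) and the growth factor Csf1 (0.17). The median distance of a member to all other genes lay between 0.35 and 0.56.

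Of the receptor chains that bind JAKs, 21 of 25 measured were above background, and 2 were higher, 3 lower and 16 not past the threshold at P28 in edgeR, where 30.6% of all genes were called (16.7% higher and 13.9% lower). Il7r, the IL-7 receptor chain that works with Jak1 and Jak3, rose to 4855 ± 433 scaled counts at P28, against 2211 ± 593 at P14 (1.13 ± 0.17, adjusted p = 0.00014), a call lost with positive controls alone (0.32, adjusted p = 0.441). Il21r, which uses the same kinases, rose to 3142 ± 829 at P28, against 2145 ± 256 at P14 (0.55 ± 0.16, adjusted p = 0.0188), but was at -0.22 with positive controls alone and lost its call without Polr1b (0.43, adjusted p = 0.0621). The common gamma chain itself, Il2rg, was near background, at 29.8 ± 6.02 at P28 and 35.3 ± 5.72 at P14, and did not pass (-0.26 ± 0.16). Il2rb, a receptor chain shared by IL-15 and IL-2, was above background in 0 of 6 samples at P28 and in 6 of 6 at P14 (52.8 ± 4.39), at least 2.07-fold lower at P28. Il2rb passed the presence rule only through the P14 samples, so its call, among the 3 lower, adds no support beyond that difference in detection. Crlf2, the receptor chain for TSLP, fell to 54.4 ± 10.8 at P28, against 101 ± 46.4 at P14 (-0.86 ± 0.26, adjusted p = 0.0188), a call lost without P14 samples 4 and 5 (-0.47, adjusted p = 0.0585). Il27ra, a chain of the IL-27 receptor, was near background, above it in 4 of 6 samples at P28 and 6 of 6 at P14. Its level was 26.2 ± 4.43 at P28, where the mean background threshold was 25.5 scaled counts, against 36.2 ± 5.92 at P14 (-0.47 ± 0.15, edgeR adjusted p = 0.0287). Il27ra missed the test threshold in 9 of the alternatives, for example with the authors' factors (-0.34, edgeR adjusted p = 0.0780). The median over the 21 chains was 0.056. With P14 samples 4 and 5 left out, the counts were 4 higher and 4 lower, against 43.2% of all genes called in either direction.

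The chains for interferon and IL-6 type cytokines did not pass. Ifnar1 had a log2 fold change of 0.18 ± 0.20, Ifnar2 0.23 ± 0.11, Ifngr1 -0.16 ± 0.13, Ifngr2 0.24 ± 0.16 and the shared chain Il6st 0.18 ± 0.14. Il4ra, the IL-4 receptor chain that docks Stat6, had 1389 ± 213 scaled counts at P28 and 819 ± 449 at P14 and did not pass either (0.75 ± 0.34, edgeR adjusted p = 0.102).

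Of the feedback inhibitors of the pathway, 5 of 6 measured were above background, and 2 were higher, 0 lower and 3 not past the threshold at P28, with a median of 0.36, beside 16.7% higher and 13.9% lower over all genes. Socs3, which blocks JAKs on gp130 receptors and is itself a Stat3 target, rose to 2184 ± 319 scaled counts at P28, against 957 ± 428 at P14 (1.19 ± 0.26, edgeR adjusted p = 0.00276), a call lost with positive controls alone (0.34, adjusted p = 0.469). Ptpn6, the phosphatase SHP-1, rose to 7803 ± 949 at P28, against 5703 ± 318 at P14 (0.45 ± 0.097, edgeR adjusted p = 0.00276), but was at -0.26 with positive controls alone. Socs1 (-0.096 ± 0.34), Ptpn2 (0.36 ± 0.15) and Ptprc (0.36 ± 0.17) did not pass. Leaving out P14 samples 4 and 5 gave 2 higher and 1 lower, where 43.2% of all genes were called.

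Of the textbook STAT targets, 10 of 12 measured were above background, and 1 was higher, 0 lower and 9 not past the threshold, with a median of 0.099, beside 30.6% called over all genes; the 1 was Socs3, which is on both lists. Bcl6, a repressor induced by several STATs, had a log2 fold change of 0.24 ± 0.11, Irf1, an interferon gamma target, 0.0078 ± 0.12, Irf7, a target of type I interferon, -0.86 ± 0.38, Cdkn1a -0.39 ± 0.20 and the cytokine Il10 0.32 ± 0.15. Leaving out P14 samples 4 and 5 gave 1 higher and 1 lower, again beside 43.2% of all genes.

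The authors' deposited table gives a fold (P28 over P14) and a p-value per gene on their own scaled values. In the authors' deposited table, Stat5a had a fold of 1.64 (p = 0.0007 by the authors' own test), and Stat5b a fold of 1.24 (p = 0.0065). The authors' deposited table lists Jak1 at 1.19, Tyk2 at 1.09, Stat6 at 1.04, Stat2 at 1.02, Jak2 at 0.99, Stat3 at 0.89 and Jak3 at 0.78, with p-values from 0.0707 to 0.9527.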

How the data were processed

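Sorted hippocampal microglia of P28 and P14 pups were measured, with the age taken from each title. The labels' protocols give 2 ng of RNA, cDNA synthesis, 5 PCR rounds and hybridisation to the panel. PCR copies are not independent molecules, so the true error exceeds counting error. The deposited raw counts are whole barcode counts that the authors did not scale. The deposited scaled values are a score, set by the authors relative to positive controls and reference genes per the labels, and the authors' deposited fold (a ratio) and p-value per gene come from them per the file headers. Counting software and genome build are not given in the sources used here.

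From the raw counts, a gene was called present when at least 40% of samples had it above a threshold set per sample from 8 negative probes (their mean plus 2 SD). Present genes were fitted with edgeR 4.0.16 in R 4.3.3 (glmQLFit, glmQLFTest), with the geometric mean of Alas1, Gapdh, Oaz1, Polr1b, Sdha and Tbp as scale (the labels say 5 reference genes and name these 6), age as the only term and an FDR of 0.05. Ranges of totals, and the raw counts behind each gene, set the precision. All 9 members matched RefSeq by symbol and by accession. Named genes are the 9 members, genes of the 3 pathway lists past the threshold, and for each member the 2 present genes with the smallest root mean square difference (log2 scaled counts, pseudocount 1). Other list and marker genes given as examples were chosen after their values were seen. Some genes that these rules name are not reported here. The members and lists were chosen with earlier results of these data known. Alternatives were limma 3.58.1, DESeq2 1.42.0, other scalings, filters and thresholds, and samples left out. Models were tested on simulated data. Per-sample columns of no sample numbered 0.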

Additional observations from a re-analysis of the deposited data

Results flagged for a closer look

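Among 34 named genes, each examined at both ages (68 sets of 6 samples), 5 sets held a sample far from the others; chance flags about 1 in 20 such sets. Jak2 in P28 sample 138 had 9567 scaled counts, against 3398 to 4045 in the other P28 samples, and Maf in the same sample had 4879, against 2413 to 2919.7. Maf was named for its likeness to Jak2 over these samples, so its flag is not separate from that of Jak2. Jak3 in P28 sample 137 had 3455, against 2460.2 to 2749.9. Stat5b in P14 sample 5, the sample with the lowest total, had 1076, against 1291 to 1376. Crlf2 in P28 sample 135 had 75.3, against 45.9 to 55.7.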

How the results depend on the processing

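Fold changes and counts of calls were recomputed with 6 other scalings, 3 other tools or inputs, 2 filters, an FDR of 0.01 (counts of calls) and each sample left out in turn, and, chosen after seeing the data, without P14 samples 4 and 5. The 4 ratios, which no scaling moves, were recomputed only with samples left out, and profile distances, nearest genes and promoter matches were not recomputed. Values are log2 fold changes (P28 over P14) or counts of genes past the threshold, and the cause of a change was not tested except that fewer genes, samples or a stricter threshold act by construction. With the authors' factors, 2 JAK and STAT genes passed, Tyk2 was 0.12, Stat2 0.026, Stat5b 0.31 and Stat6 0.055. On that scale 4 of 5 inhibitors and 4 of 10 targets passed, all higher at P28, against 35.2% of all genes. With all 14 reference genes, 3 genes passed, and Jak3 was -0.40, Tyk2 0.066 and Stat5b 0.25. There 4 of 5 inhibitors and 3 of 10 targets passed, all higher, against 35.8% of all genes. Without Polr1b, 2 genes passed, and Jak1 was -0.0010, Jak3 -0.61, Stat3 -0.42 and Stat5a 0.45. With positive controls alone, 3 genes passed with a median of -0.82. On this scale Jak1 was -0.67, Jak2 -0.86, Jak3 -1.32, Stat3 -1.07, Stat5a -0.25 and Stat5b -0.58. Of the lists, 0 of 5 inhibitors passed. The 8 of 21 receptor chains and 2 of 10 targets that passed were all lower, against 36.9% of all genes (8 higher and 127 lower). With TMM, 3 genes passed, Jak3 was -0.51 and Stat3 -0.34, and 4 of 5 inhibitors passed, all higher, against 36.3% of all genes. With total counts, 4 genes passed, and Jak1 was -0.016, Jak3 -0.62, Stat3 -0.45 and Stat6 -0.23. There 10 of 21 receptor chains (2 higher, 8 lower) and 2 of 10 targets (1 higher, 1 lower) passed, against 40.2% of all genes. With DESeq2, 3 genes passed, Jak3 at -0.49 and Stat3 at -0.30. With limma on scaled counts, Tyk2 was 0.0035. With limma on the authors' values, 2 genes passed, and Tyk2 was 0.13, Stat2 0.044, Stat5b 0.30 and Stat6 0.047. There 4 of 5 inhibitors and 4 of 10 targets passed, all higher, against 34.2% of all genes. With genes above background in all 12 samples, 3 of 17 receptor chains passed (2 higher, 1 lower), beside 86 of 276 genes. At an FDR of 0.01, 0 JAK and STAT genes and 2 of 21 receptor chains (1 higher, 1 lower) passed, beside 21.3% of all genes. Without P14 samples 4 and 5, 3 genes passed, and Jak1 was -0.041, Jak3 -0.72, Tyk2 0.060, Stat3 -0.39 and Tyk2 over Jak1 0.090. There 8 of 21 receptor chains (4 higher, 4 lower) and 2 of 10 targets (1 higher, 1 lower) passed, against 43.2% of all genes.

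With each sample left out in turn, 102 to 121 genes and 0 to 3 JAK and STAT genes passed, with a median of -0.094 to -0.036. The ranges were 0.037 to 0.21 for Jak1, -0.48 to -0.054 for Jak2, -0.60 to -0.37 for Jak3, -0.063 to 0.055 for Tyk2, -0.20 to -0.021 for Stat2, -0.35 to -0.20 for Stat3, 0.47 to 0.70 for Stat5a, 0.13 to 0.22 for Stat5b and -0.12 to -0.036 for Stat6. Of the lists, 2 to 3 of 5 inhibitors, 4 to 6 of 21 receptor chains and 1 to 2 of 10 targets passed, against 27.9% to 33.1% of all genes. The ratio differences ran from -0.58 to -0.35 for Stat5b over Stat5a, -0.65 to -0.27 for Jak2 over Jak1, -0.24 to -0.057 for Tyk2 over Jak1 and 0.13 to 0.26 for Stat6 over Stat3. Stat5a missed the threshold in 4 of 24 alternatives at an FDR of 0.05, with adjusted p-values from 0.0042 to 0.557. No paired analysis was possible because the ages share no replicate numbers.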
